A study of Mus musculus with 18 samples.

Results

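Interferon-stimulated genes are the genes that cells switch on in answer to interferons, and 42 of them, together with their regulators, were followed across 18 libraries of mouse alveolar macrophages. They were picked by symbol, as a list of IFIT, OAS, GBP and immunity-related GTPase genes, ISG15 pathway genes, sensors, transcription factors and single effectors. All 42 were found among the 32789 genes of the table, and 41 had enough reads to be tested. The exception was Ifi44, which had 25 counts over all 18 libraries.

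Polyadenylated RNA was sequenced from macrophages that had been taken from lung lavage fluid and enriched with beads against CD11c. The 3 knockout groups carried a CD11c-Cre transgene, which is active in alveolar macrophages and also in dendritic cells. By the labels, the first lacked Vhl and Hif1a, the second Vhl and Hif2a (gene symbol Epas1), and the triple knockout all 3 genes. Each had its own control with the same genes flox-flox, named WT in the titles, and every group had 3 libraries. The labels give no age or sex, and do not say whether the libraries of a group came from separate animals, so p-values measure the spread between these libraries. Vhl encodes the protein that marks HIF-1α and HIF-2α for degradation, and the comparisons ask what the macrophages express when Vhl is missing together with either HIF gene or with both.

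Type I interferons bind a cell surface receptor whose kinases activate transcription factors, and a complex that includes STAT2 and IRF9 then binds the interferon-stimulated response element (ISRE) in the promoters of its target genes. Interferon gamma acts through another element, the gamma-activated site (GAS). Many of these genes are expressed at a low basal level in resting macrophages, including those of the lung airspaces, and several products, such as IRF7 and STAT2, feed back into the pathway.

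Library totals lay between 19230000 and 34020000 counts, and the summed level of 16 alveolar macrophage markers was higher in every knockout library than in any control of its cross. They summed to 41210 to 42880 CPM (counts scaled to library size) in the Vhl/Hif2a knockout, against 32430 to 35240 CPM in controls. There 6 of the 16 were called higher and 2 lower, against 7.68% and 7.01% of all genes. They summed to 38700 to 45850 CPM in the Vhl/Hif1a knockout, against 33990 to 35490 CPM in controls, and to 40660 to 41950 CPM in the triple knockout, against 28200 to 37560 CPM in controls. In the Vhl/Hif1a knockout 1 was called higher and 1 lower (2.22% and 1.42% of all genes). In the triple knockout 1 was called higher (0.031% of all genes) and none lower. The part of this marker difference in the results was not tested. Vhl fell in all 3 knockouts, with log2 fold changes of -2.55, -3.05 and -2.56 in the Vhl/Hif1a, Vhl/Hif2a and triple knockouts. Whole-gene counts did not check the HIF deletions, since Hif1a was at 166 to 209 CPM in the libraries labelled Vhl/Hif1a knockout, against 225 to 232 CPM in their controls, and Epas1 rose in those labelled Vhl/Hif2a knockout (0.97, edgeR adjusted p = 0.0019), where Hif1a fell (-1.71, adjusted p = 4.3e-06). In the triple knockout neither was called (Hif1a 0.19, Epas1 -0.24). Whether the labels of the Vhl/Hif1a and Vhl/Hif2a crosses could be exchanged was not tested, and an exchange would swap every value given for them. Vhl/Hif1a and Vhl/Hif2a knockout therefore mean the libraries labelled so. Triple control 2 stood apart from the other 2 libraries of its group: its chi-square per gene against them was 131 and 133, while theirs was 12.2, and pairs within the other groups gave 9.04 to 45.4. It held the lowest value of its group for 28 of the 41 tested interferon-stimulated genes. Within their groups, triple knockout 1 was highest for 32 of the 41, triple control 1 for 31 and Vhl/Hif1a control 3 for 29, and triple knockout 2 was lowest for 28.

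Promoter windows from RefSeq (GRCm38.p6), running from 250 bases before to 50 bases after the transcription start, were matched for 34 of the 42 genes. The ISRE core searched was GAAANNGAA on either strand, overlapping matches allowed. It was found in 21 of the 34 genes (61.8%), against 9.76% of all 27025 genes in the same table. The GAS core TTCNNNGAA, which reads the same on both strands in its fixed letters, was found in 8 of the 34 (23.5%), against 9.55% of all genes. The 200 bases before the start are shown for 5 genes that fell in at least 1 knockout and for Isg15, the gene the pathway's ubiquitin-like modifier is named for, on the strand of each gene and with ISRE cores in capitals. The windows are Ifit1 at chr19:34640689-34640888 (+), Ifit3 at chr19:34583329-34583528 (+), Ifit3b at chr19:34607757-34607956 (+), Rsad2 at chr12:26456453-26456652 (-), Gbp3 at chr3:142559844-142560043 (+) and Isg15 at chr4:156200819-156201018 (-).
Ifit1: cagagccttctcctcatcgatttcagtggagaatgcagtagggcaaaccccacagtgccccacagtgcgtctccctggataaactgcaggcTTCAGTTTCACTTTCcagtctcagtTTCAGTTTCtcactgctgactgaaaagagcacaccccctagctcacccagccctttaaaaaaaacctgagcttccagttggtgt
Ifit3: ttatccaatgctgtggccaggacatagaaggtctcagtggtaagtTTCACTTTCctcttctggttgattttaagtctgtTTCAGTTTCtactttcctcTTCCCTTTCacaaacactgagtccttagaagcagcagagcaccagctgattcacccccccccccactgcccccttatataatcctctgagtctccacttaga
Ifit3b: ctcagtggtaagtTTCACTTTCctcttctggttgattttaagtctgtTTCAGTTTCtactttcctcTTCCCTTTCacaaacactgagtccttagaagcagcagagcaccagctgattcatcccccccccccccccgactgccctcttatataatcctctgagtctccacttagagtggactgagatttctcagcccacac
Rsad2: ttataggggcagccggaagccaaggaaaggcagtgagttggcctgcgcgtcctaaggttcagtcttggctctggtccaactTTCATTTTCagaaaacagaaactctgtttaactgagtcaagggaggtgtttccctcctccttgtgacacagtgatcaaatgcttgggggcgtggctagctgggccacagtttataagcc
Gbp3: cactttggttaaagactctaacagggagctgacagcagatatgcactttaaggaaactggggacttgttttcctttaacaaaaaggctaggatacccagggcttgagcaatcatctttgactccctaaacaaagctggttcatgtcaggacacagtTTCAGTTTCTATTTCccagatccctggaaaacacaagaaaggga
Isg15: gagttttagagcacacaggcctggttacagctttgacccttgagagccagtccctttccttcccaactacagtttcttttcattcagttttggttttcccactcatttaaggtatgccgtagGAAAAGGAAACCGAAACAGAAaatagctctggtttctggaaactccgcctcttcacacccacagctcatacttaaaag

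In these windows Ifit1, Ifit3, Ifit3b and Isg15 each held 3 cores, Gbp3 held 2, and Rsad2 held 1. The 2 cores of Gbp3 overlap, as do 2 of the 3 of Ifit1, and each core of Isg15 overlaps the next. The Ifit3 and Ifit3b windows were the same at 138 of 168 aligned bases (82.1%) when shifted by 32 bases, and hold the same 3 cores. In Samd9l, the gene that rose, the core lies 38 bases after the start. A match is a description of these letters and not evidence of a bound factor. With 33 tested genes matched, the 20 that held an ISRE core had a median log2 fold change of -0.41 in the Vhl/Hif1a knockout, -0.56 in the Vhl/Hif2a knockout and 0.01 in the triple knockout. The 13 without it had medians of -0.29, -0.35 and -0.11 in the same order, so genes on both sides of this split were lower in the first pair of knockouts.

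The interferon-stimulated genes that changed were nearly all lower, and they changed in the Vhl/Hif2a and Vhl/Hif1a knockouts. In the Vhl/Hif2a knockout 20 of the 41 tested genes fell, against 7.01% of all 12900 genes tested, and 1 rose, against 7.68% of all genes. In the Vhl/Hif1a knockout 8 fell, against 1.42% of all genes, and 1 rose, against 2.22%. In the triple knockout none was called by edgeR, where 0.0388% of all genes were, 2 had an unadjusted p under 0.05 and DESeq2 called none. A gene is called here when its edgeR p-value, adjusted over all genes tested, is under 0.05. The median log2 fold change of the 41 genes was -0.39 in the Vhl/Hif2a, -0.30 in the Vhl/Hif1a and -0.03 in the triple knockout, and that of all genes tested was 0.003, -0.001 and -0.01. In bulk RNA, fewer cells of a type and less RNA per cell cannot be told apart.

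The counts behind these tests can also be read by single library, which is not separate evidence. The separation was clearer in the Vhl/Hif2a than in the Vhl/Hif1a cross. Every knockout library lay below every control library for 29 of the 41 genes in the Vhl/Hif2a cross, against 16.6% of all genes. The same held for 18 of the 41 in the Vhl/Hif1a cross, against 12% of all genes, and for 1 of the 41 in the triple cross, against 8.34%. Over the 41 genes, log2(CPM + 0.5) relative to each gene's mean had medians of -0.28, -0.26 and -0.34 in the Vhl/Hif2a knockout libraries, against 0.20, 0.24 and 0.12 in their controls. The medians were -0.13, -0.36 and -0.36 in the Vhl/Hif1a knockout libraries, against -0.07, -0.09 and 0.20 in their controls. They were 0.26, 0.11 and 0.20 in the triple knockout libraries, against 0.41, 0.21 and 0.23 in their controls. Across the 41 genes the log2 fold changes of the Vhl/Hif1a and Vhl/Hif2a knockouts, which share no library, had a Pearson r of 0.861 and a Spearman rho of 0.818, and across all 12900 genes 0.367 and 0.442; genes are not independent replicates.

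**Figure D1:**
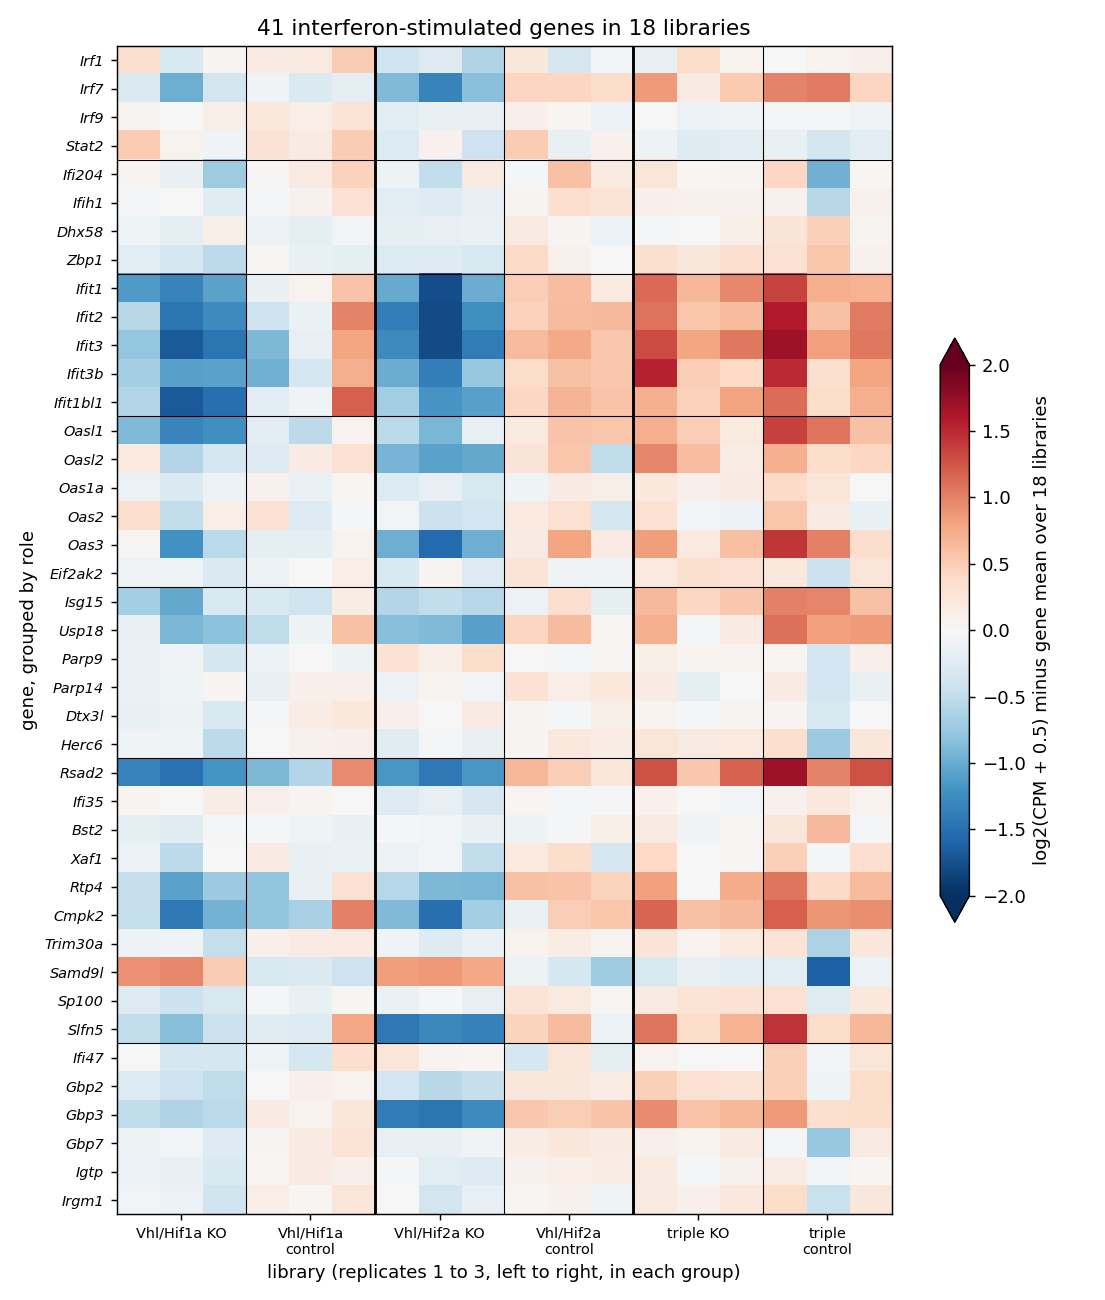
Each tile is log2(CPM + 0.5) of a gene (rows, grouped by role) in a library (columns) minus the gene's mean over the 18 libraries, with colours limited to 2 in either direction. The IFIT rows, Rsad2, Cmpk2, Slfn5 and Gbp3 are low in the Vhl/Hif1a and Vhl/Hif2a knockout columns, Samd9l is high there, and triple control 2 and Vhl/Hif1a control 3 stand out within their groups.

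**Figure D2:**
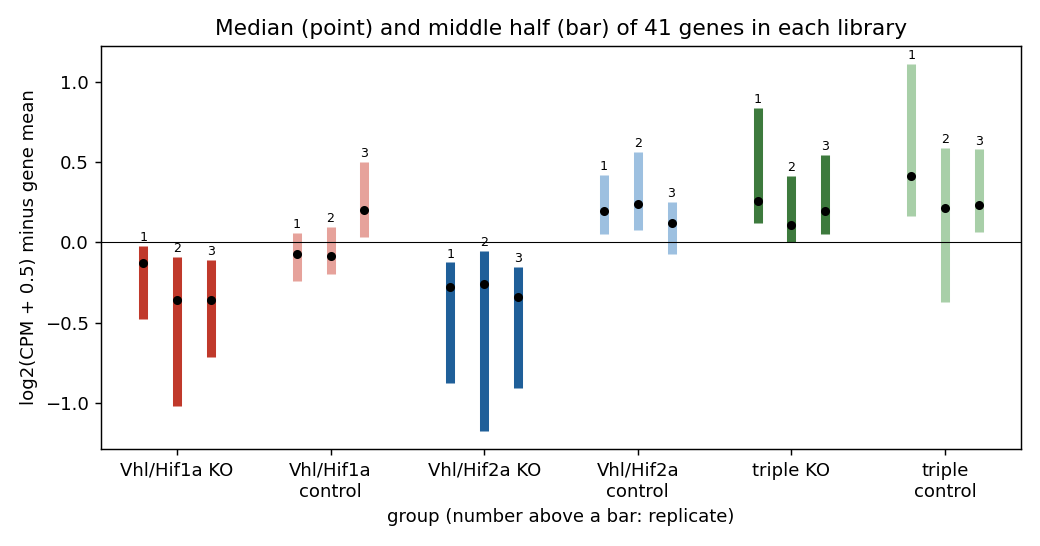
For each library the point is the median and the bar the interquartile range, over 41 genes, of log2(CPM + 0.5) minus the gene's mean over 18 libraries. The 3 Vhl/Hif2a knockout libraries have medians of -0.28, -0.26 and -0.34, below the medians of all 9 control libraries and of the 3 triple knockout libraries.

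The IFIT proteins bind viral RNA that lacks the marks of the host's own and block its translation, and their 5 genes lie together on chromosome 19. All 5 fell in the Vhl/Hif2a knockout and 4 in the Vhl/Hif1a knockout, with median log2 fold changes of -2.37 and -1.75, and none was called in the triple knockout (-0.12). Without triple control 2, the library that stood apart, all 5 were lower in the triple knockout, by -0.58 (Ifit2) to -0.13 (Ifit1), and none was called. Ifit1 had 1.19, 0.497 and 1.23 CPM in the Vhl/Hif2a knockout libraries, against 4.29, 4.75 and 3.39 CPM in their controls. It had 1.05, 0.857 and 1.13 CPM in the Vhl/Hif1a knockout libraries, against 2.57, 3.08 and 4.55 CPM in their controls. The groups did not overlap in either cross, and Ifit1 fell by 2.09 ± 0.31 (edgeR adjusted p = 1.7e-04) and 1.75 ± 0.32 on the log2 scale (SE, adjusted p = 0.003). In the triple cross the 7.03, 4.92 and 6.18 CPM of the knockout libraries overlapped the 8.19, 5.16 and 5.04 CPM of the controls.

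Ifit2 and Ifit3, of the same family, differed in the same crosses. Ifit2 had 1.52, 1.03 and 1.73 CPM in the Vhl/Hif2a knockout libraries, against 6.75, 7.68 and 7.76 CPM in controls (-2.37 ± 0.39, adjusted p = 4.4e-04). It had 3.08, 1.42 and 1.68 CPM in the Vhl/Hif1a knockout libraries, against 3.46, 4.27 and 9.91 CPM in controls (-1.52 ± 0.38, adjusted p = 0.034). All knockout values were below all control values in both crosses, and control 3 of the Vhl/Hif1a cross was more than 2-fold above the others. Without that library the Vhl/Hif1a difference was -0.90 (adjusted p = 0.27), and the call also ended without knockout 2 or 3. Ifit2 overlapped in the triple cross, with 10.7, 7.25 and 7.64 CPM in the knockout, against 15.2, 7.41 and 10.3 CPM in controls.

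Ifit3 had 1.06, 0.590 and 0.927 CPM in the Vhl/Hif2a knockout libraries, against 5.32, 5.83 and 4.97 CPM in controls (-2.64 ± 0.43, adjusted p = 4.1e-04). It had 1.69, 0.670 and 0.860 CPM in the Vhl/Hif1a knockout libraries, against 1.52, 2.86 and 6.02 CPM in controls. The Vhl/Hif1a groups overlapped through knockout 1 and control 1, and the difference of -1.69 (adjusted p = 0.036) was -1.01 without control 3 (adjusted p = 0.29). The call also ended without control 2, knockout 2 or knockout 3. In the triple cross the values of 8.82, 6.02 and 7.32 CPM in knockout libraries overlapped the 11.7, 6.16 and 7.29 CPM of controls.

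Its near copy Ifit3b had 0.232, 0.062 and 0.359 CPM in the Vhl/Hif2a knockout libraries, against 1.38, 1.70 and 1.63 CPM in controls (-2.82 ± 0.69, adjusted p = 0.0095). The groups did not overlap. In the Vhl/Hif1a cross the 0.413, 0.186 and 0.195 CPM of the knockout overlapped the 0.253, 0.661 and 1.93 CPM of the controls, and the gene was not called (-1.83, adjusted p = 0.22). The triple cross overlapped too, with 3.74, 1.55 and 1.43 CPM in the knockout, against 3.59, 1.33 and 2.02 CPM in controls. Of the 50-base words of the longest coding transcript, Ifit3 shares 51.2% and Ifit3b 45% with other genes, mostly each other, so the authors' counting could have split their reads and the separate values are uncertain.

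Ifit1bl1, an IFIT1-like gene, had 0.926, 0.528 and 0.598 CPM in the Vhl/Hif2a knockout libraries, against 2.61, 3.20 and 2.93 CPM in controls (-2.09 ± 0.48, adjusted p = 0.0067). It had 1.05, 0.223 and 0.313 CPM in the Vhl/Hif1a knockout libraries, against 1.48, 1.72 and 4.82 CPM in controls (-2.33 ± 0.50, adjusted p = 0.012). Neither cross overlapped, and control 3 of the Vhl/Hif1a cross was again the highest by far. The Vhl/Hif1a call ended without control 3 (-1.57), knockout 2 or knockout 3. The triple knockout's 3.29, 2.69 and 3.53 CPM overlapped 4.51, 2.50 and 3.32 CPM in controls.

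**Figure D3:**
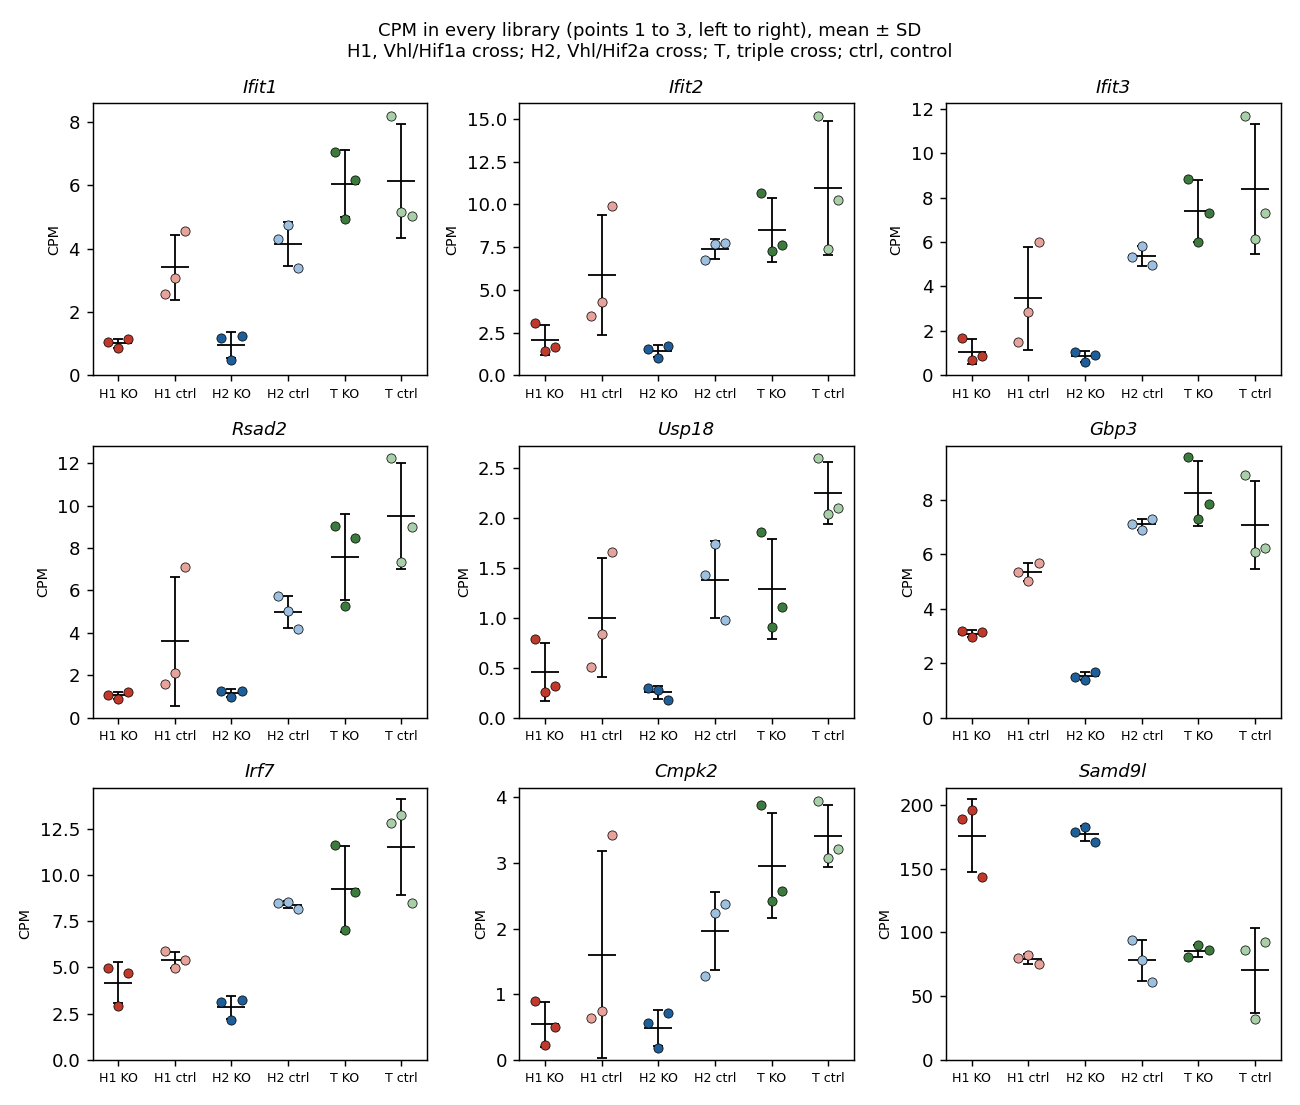
CPM of 9 genes in each library (points, replicates 1 to 3 from left to right), with the mean (long tick) and SD (bars) of each group, each knockout left of its control. Ifit1, Ifit2, Ifit3, Rsad2, Usp18, Gbp3, Irf7 and Cmpk2 in the Vhl/Hif2a knockout lie below every library of their control, Samd9l lies above every one, and for Ifit2, Ifit3, Rsad2 and Cmpk2 the third Vhl/Hif1a control is far above the other 2.

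Among the other antiviral effectors, Rsad2 encodes viperin, an enzyme that makes a chain-terminating nucleotide. It had 1.26, 0.962 and 1.26 CPM in the Vhl/Hif2a knockout libraries, against 5.72, 5.02 and 4.18 CPM in controls (-2.10 ± 0.43, adjusted p = 0.0026). It had 1.05, 0.894 and 1.21 CPM in the Vhl/Hif1a knockout libraries, against 1.6, 2.12 and 7.10 CPM in controls (-1.78 ± 0.44, adjusted p = 0.031). Neither cross overlapped, but the spread among the Vhl/Hif1a controls was the widest of the 41 genes in any control group (3.61-fold with 0.5 CPM added). The difference was -0.81 without control 3 (adjusted p = 0.26), and the call also ended without any 1 of the knockout libraries. In the triple cross Rsad2 had 9.02, 5.25 and 8.46 CPM in the knockout, overlapping 12.2, 7.32 and 8.97 CPM in controls.

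Cmpk2, a mitochondrial nucleotide kinase whose gene lies close to Rsad2 on chromosome 12, had 0.562, 0.186 and 0.717 CPM in the Vhl/Hif2a knockout libraries, against 1.28, 2.24 and 2.37 CPM in controls (-2.0 ± 0.60, adjusted p = 0.033). The groups did not overlap. Leaving out knockout 1, knockout 2, control 2 or control 3 took the call away. In the Vhl/Hif1a cross the 0.901, 0.223 and 0.508 CPM of the knockout overlapped the 0.633, 0.749 and 3.43 CPM of the controls, and Cmpk2 was not called (-1.57, adjusted p = 0.23, and -0.33 without control 3). Triple knockout libraries, at 3.88, 2.43 and 2.57 CPM, overlapped 3.95, 3.08 and 3.21 CPM in controls.

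Samd9l, a large antiproliferative and antiviral protein, was the only one of the 41 genes called higher in any knockout. It had 179, 183 and 171 CPM in the Vhl/Hif2a knockout libraries, against 93.9, 78.7 and 61.4 CPM in controls (1.19 ± 0.26, adjusted p = 0.0046). It had 189, 196 and 143 CPM in the Vhl/Hif1a knockout libraries, against 80.1, 82.2 and 75 CPM in controls (1.15 ± 0.26, adjusted p = 0.016). Neither cross overlapped, and in the Vhl/Hif1a cross the call ended without 5 of the 6 libraries in turn, at log2 fold changes of 1.07 to 1.28. In the triple cross it had 80.5, 90.1 and 86.2 CPM in the knockout, against 86.0, 32.0 and 92.4 CPM in controls, overlapping, with triple control 2 far below the rest.

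Of the 10 other effectors tested, Slfn5, Rtp4 and Ifi35 also fell in the Vhl/Hif2a knockout. Slfn5, a member of the Schlafen family, was at 1.25 ± 0.0887 CPM in the Vhl/Hif2a knockout, against 5.20 ± 1.43 CPM in controls (SD, n = 3; -2.06 ± 0.36 by edgeR, adjusted p = 7.8e-04). Rtp4, first known as a chaperone of receptors, was at 1.15 ± 0.232 against 3.63 ± 0.206 CPM in the same pair of groups (-1.65 ± 0.34), and 13.6% of its transcript words are shared with an overlapping predicted gene. Ifi35 fell by 0.25 and lost its call in 5 of the 6 fits that left out a library. The same effectors were not called in the Vhl/Hif1a knockout (Slfn5 -0.89, Rtp4 -0.77, Ifi35 0.01). The tethering factor Bst2, the restriction factor Trim30a, Xaf1 and Sp100 were called in no knockout, at log2 fold changes of -0.35 to -0.06 in the Vhl/Hif1a and the Vhl/Hif2a knockouts.

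Of the 4 transcription factors, Irf7 fell in the Vhl/Hif2a knockout and none was called in the other knockouts. IRF7 drives type I interferon genes, and Irf7 was at 2.85 ± 0.614 CPM in the Vhl/Hif2a knockout, against 8.40 ± 0.191 CPM in controls (-1.56 ± 0.23, edgeR adjusted p = 1.7e-04). It was at 4.18 ± 1.12 CPM in the Vhl/Hif1a knockout, against 5.41 ± 0.444 CPM in controls (-0.37, adjusted p = 0.58), and at 9.25 ± 2.31 CPM in the triple knockout, against 11.5 ± 2.61 CPM in controls. Stat2 and Irf9, which encode parts of the ISRE-binding complex, and Irf1, which responds to interferon gamma, were called in no knockout. In the Vhl/Hif2a knockout they had log2 fold changes of -0.36, -0.18 and -0.38 (adjusted p = 0.20, 0.12 and 0.16).

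Among the cytoplasmic sensors and their regulators, Ifih1, which encodes the double-stranded RNA sensor MDA5, fell by 0.44 in the Vhl/Hif2a knockout (adjusted p = 0.041), and Zbp1, a sensor of Z-form nucleic acid, fell by 0.47 (adjusted p = 0.028). Both lost their calls without single libraries, Ifih1 in 5 and Zbp1 in 4 of the 6 fits. Dhx58, which encodes the regulator LGP2, and Ifi204, a DNA-sensing relative of human IFI16, were called in no knockout. Ifi204 shares 30.2% of its words with other genes of its family.

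OAS enzymes make the second messenger 2-5A, which activates RNase L, and Oas1a, Oas2, Oas3, Oasl1 and Oasl2 lie on chromosome 5. With Eif2ak2, the gene of the kinase PKR, 4 of 6 fell in the Vhl/Hif2a knockout, 1 in the Vhl/Hif1a knockout and none in the triple knockout. Oasl1, an OAS-like gene whose mouse product restrains IRF7 translation, had 0.992, 0.652 and 1.44 CPM in the Vhl/Hif2a knockout libraries, against 1.99, 2.74 and 2.70 CPM in controls (-1.27 ± 0.33, adjusted p = 0.014). It had 0.676, 0.372 and 0.430 CPM in the Vhl/Hif1a knockout libraries, against 1.35, 1.01 and 1.77 CPM in controls (-1.48 ± 0.37, adjusted p = 0.03). Neither cross overlapped, but the Vhl/Hif2a difference missed the threshold without knockout 1, knockout 2 or control 2, and the Vhl/Hif1a difference without knockout 2, knockout 3, control 1 or control 3. The triple cross overlapped, with 3.09, 2.56 and 2 CPM in the knockout, against 5.13, 4.08 and 2.75 CPM in controls.

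Oas3 was at 1.27 ± 0.377 CPM in the Vhl/Hif2a knockout, against 4.67 ± 1.38 CPM in controls (-1.88 ± 0.37, edgeR adjusted p = 0.0022), and Oasl2 at 1.03 ± 0.0827 CPM, against 2.96 ± 1.20 CPM (-1.52 ± 0.34, adjusted p = 0.005). In the Vhl/Hif1a knockout both were at most 0.46 lower and not called. Oas1a fell by 0.33 in the Vhl/Hif2a knockout and lost the call in 5 of 6 fits without a library, and it shares 57.6% of its words with Oas1g and Oas1b. Oas2 and Eif2ak2 were called in no knockout.

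ISG15 is a ubiquitin-like protein that is attached to other proteins, and USP18 removes it and also blocks signalling at the interferon receptor. Usp18 had 0.298, 0.279 and 0.179 CPM in the Vhl/Hif2a knockout libraries, against 1.43, 1.74 and 0.976 CPM in controls (-2.44 ± 0.49, adjusted p = 0.0024). It was the only one of the 6 genes of this group to fall. In the Vhl/Hif1a cross 0.789, 0.261 and 0.313 CPM in the knockout overlapped 0.506, 0.837 and 1.66 CPM in controls (-1.14, adjusted p = 0.28). In the triple cross the 1.85, 0.907 and 1.11 CPM of the knockout all lay below the 2.60, 2.04 and 2.10 CPM of the controls, without a call (-0.80, adjusted p = 0.43). Usp18 was the only one of the 41 genes to separate the groups there. Of all genes tested, 8.34% lay wholly below the controls in that cross and 6.97% wholly above.

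Isg15 itself was at 1.95 ± 0.0875 CPM in the Vhl/Hif2a knockout, against 3.16 ± 0.746 CPM in controls (-0.70, adjusted p = 0.062), and at 1.79 ± 0.562 CPM in the Vhl/Hif1a knockout, against 2.69 ± 0.681 CPM in controls (-0.59, adjusted p = 0.28). The ligase gene Herc6 and the partners Parp9, Dtx3l and Parp14 were called in no knockout. Parp9 was above every control library in the Vhl/Hif2a knockout (71.6 ± 6.08 against 59.5 ± 1.29 CPM) and was not called. Parp9 and Dtx3l overlap on opposite strands, and the strand setting of the counting is not given in the sources used here.

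The guanylate-binding proteins and immunity-related GTPases attack the vacuoles of intracellular pathogens, and Gbp2 and Gbp3 on chromosome 3 fell in both the Vhl/Hif2a and the Vhl/Hif1a knockouts. Gbp3 had 1.49, 1.40 and 1.67 CPM in the Vhl/Hif2a knockout libraries, against 7.10, 6.87 and 7.30 CPM in controls (-2.22 ± 0.17, edgeR adjusted p = 7.6e-08). It had 3.19, 2.94 and 3.13 CPM in the Vhl/Hif1a knockout libraries, against 5.36, 5.02 and 5.67 CPM in controls (-0.79 ± 0.16, adjusted p = 0.0074). The groups were tight and far apart in both crosses, and the triple cross overlapped, with 9.57, 7.29 and 7.85 CPM in the knockout, against 8.92, 6.08 and 6.22 CPM in controls.

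Gbp2 was at 18.6 ± 1.06 CPM in the Vhl/Hif2a knockout, against 29.9 ± 0.842 CPM in controls (-0.68 ± 0.12, edgeR adjusted p = 6.4e-04), and at 19.6 ± 1.65 CPM in the Vhl/Hif1a knockout, against 27.0 ± 0.802 CPM in controls (-0.46 ± 0.12, adjusted p = 0.035). The Vhl/Hif1a call of Gbp2 ended in 5 of the 6 fits that left out a library. Of the same family, Gbp7, Igtp, Irgm1 and Ifi47 were called in no knockout. In the Vhl/Hif1a cross Gbp7, Igtp and Irgm1 were lower in every knockout library, at -0.30, -0.30 and -0.33.

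**Figure D4:**
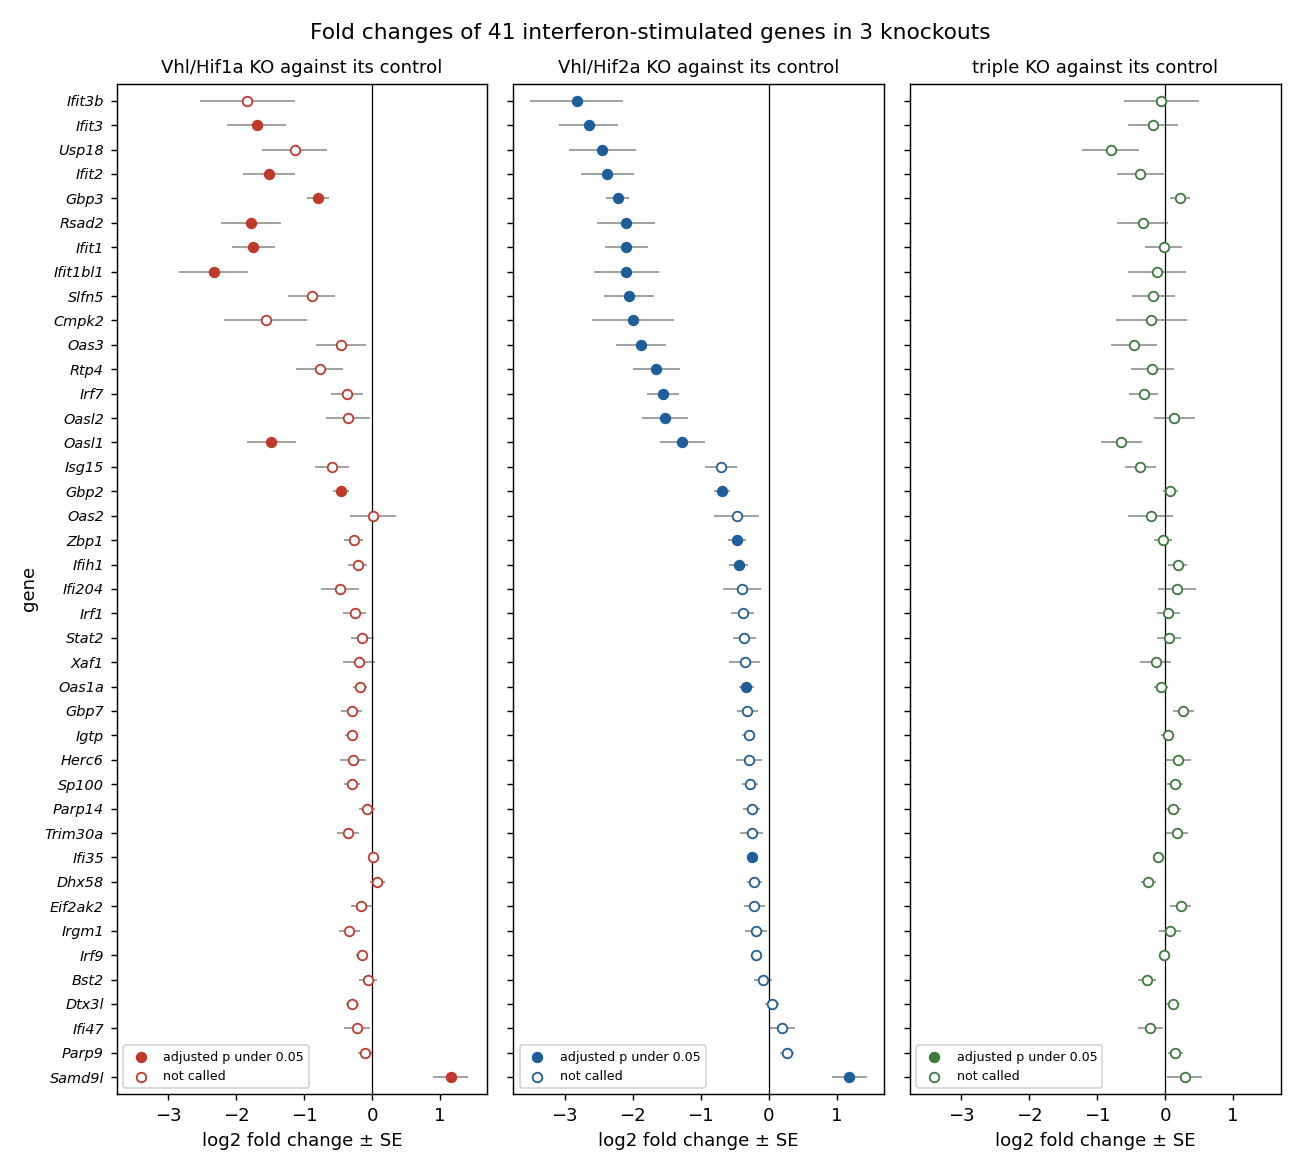
Log2 fold change of each of 41 genes (rows, ordered by the Vhl/Hif2a knockout) against its own control, with the SE as a bar, and filled where the edgeR adjusted p was under 0.05. The filled points number 21 in the Vhl/Hif2a, 9 in the Vhl/Hif1a and 0 in the triple knockout, and Samd9l is the filled point to the right of 0.

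The difference between crosses was tested as such. The Vhl/Hif2a effect was lower than the triple effect for 8 of the 41 genes, against 3.08% of all genes, and higher for none. The difference of log2 fold changes was -2.46 for Ifit3, -2.43 for Gbp3, -2.07 for Ifit1, -2.0 for Ifit2, -1.88 for Slfn5, -1.66 for Oasl2, -1.24 for Irf7 and -0.76 for Gbp2 (edgeR adjusted p between 2.3e-06 and 0.032). The count was 15 without triple control 1, 4 without triple knockout 1, and 5 without Vhl/Hif2a knockout 1 or 2 or control 2. The Vhl/Hif1a effect was lower than the triple effect for 2 of the 41, against 0.535% of all genes: Ifit1 (-1.72 ± 0.42, adjusted p = 0.044) and Gbp3 (-1.01 ± 0.22, adjusted p = 0.021). The count of 2 came down to 0 without triple knockout 1, Vhl/Hif1a control 3 or Vhl/Hif1a knockout 2 or 3, and to 1 without triple knockout 2 or 3 or Vhl/Hif1a control 1 or 2. The Vhl/Hif2a effect was lower than the Vhl/Hif1a effect for Gbp3 alone (-1.42 ± 0.23, adjusted p = 0.0016), 1 of the 41, against 0.814% of all genes, and for 2 genes without Vhl/Hif1a knockout 2. For the other 40 genes a difference between these crosses was not detected, which does not show that they responded alike. These 3 differences share groups with each other and with the knockout comparisons.

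Among the knockout comparisons, single libraries bore most on the Vhl/Hif1a result. Of its 9 called genes, Gbp3 and Ifit1 kept the call in all 6 fits that left out a library. Without Vhl/Hif1a control 3, 2 genes were called, both lower, and likewise without knockout 2, while 3 were called without knockout 3, 2 of them lower. Of the 21 genes called in the Vhl/Hif2a knockout, 15 kept the call in all 6 fits, among them all 5 IFIT genes, Irf7, Usp18, Rsad2, Slfn5, Gbp2, Gbp3 and Samd9l, and 16 to 19 genes were called in each fit. No fit that left out a library of the triple cross called any of the 41 in that cross. Without triple control 2 their log2 fold changes ran from -0.87 (Usp18) to 0.12 (Gbp3). With all libraries they ran from -0.80 to 0.29. The triple knockout values thus depend on that library, and the absence of calls does not show that these genes were unchanged there.

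**Figure D5:**
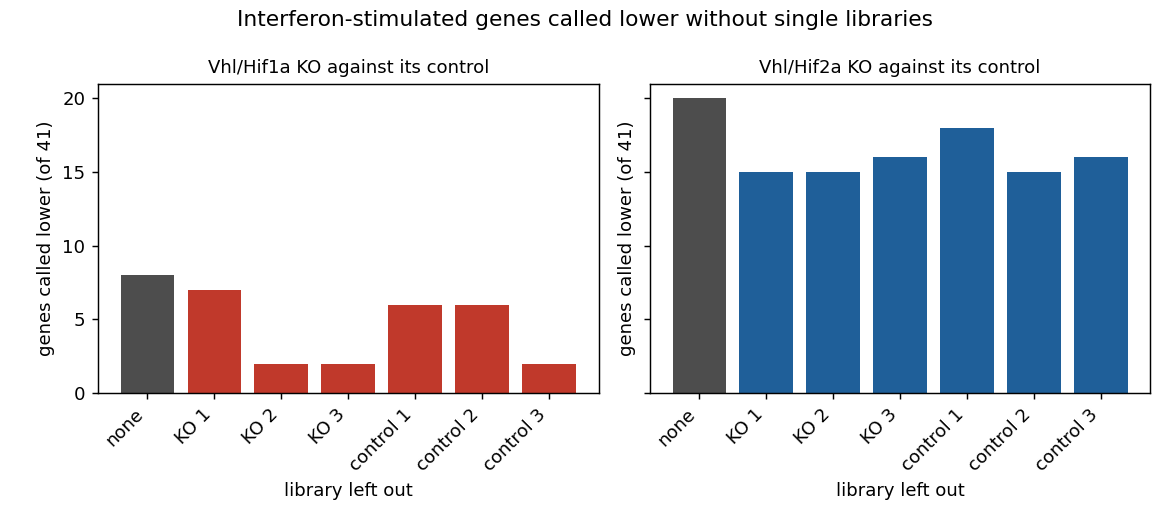
Number of the 41 genes called lower by edgeR with all libraries (dark bar) and without each library of the cross in turn. The 8 genes of the Vhl/Hif1a knockout came down to 2 without knockout 2, knockout 3 or control 3, while 15 to 18 of the 20 of the Vhl/Hif2a knockout were called lower in each fit.

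The 3 control groups, which differ in which genes are flox-flox, differed in some of these genes. In triple controls 5 of the 41 genes were higher than in Vhl/Hif1a controls, against 2.98% of all genes: Oasl1 (1.53 ± 0.32), Rsad2 (1.39 ± 0.39), Isg15 (1.16 ± 0.23), Irf7 (1.09 ± 0.23) and Dhx58 (0.41 ± 0.11), with edgeR adjusted p from 0.01 to 0.048. The count was 9 without triple control 3 (8 higher, 1 lower), 3 without triple control 1 or Vhl/Hif1a control 1 and 0 without Vhl/Hif1a control 2. In triple controls 1 gene, Isg15, was higher than in Vhl/Hif2a controls (0.93 ± 0.23), against 1.54% of all genes. No gene was called higher without triple control 1, triple control 2, Vhl/Hif2a control 1 or Vhl/Hif2a control 3, and the count was 3 without triple control 3 (2 higher, 1 lower). Between Vhl/Hif2a and Vhl/Hif1a controls edgeR called none of the 41, where 0.341% of all genes were called, 5 had an unadjusted p under 0.05 and DESeq2 called none. Within the Vhl/Hif1a controls 9 of the 41 genes (22%) differed more than 2-fold between the highest and lowest library, with 0.5 CPM added, while 1.91% of all tested genes did. Within the triple controls 6 of the 41 (14.6%) did, while 7.26% of all tested genes did, and the median ratio was 1.52 for the 41 genes and 1.37 for all. Within the Vhl/Hif2a controls 1 of the 41 (2.44%) did, while 5.16% of all tested genes did, and both median ratios were 1.19.

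Most of the genes that differed were expressed at a low level. Per kilobase of exon, the mean over the 9 control libraries was highest for Bst2, at 34.7 ± 7 CPM per kilobase (SD), followed by Trim30a at 19.5 ± 3.04, Ifi35 at 18.6 ± 1.03 and Samd9l at 14.0 ± 3.51. Ifit3 was at 3.29 ± 1.63, Irf7 at 2.24 ± 0.783, Ifit2 at 2.06 ± 0.888, Gbp3 at 1.99 ± 0.366 and Ifit1 at 1.72 ± 0.616 CPM per kilobase. Usp18 was at 0.553 ± 0.241, Oas2 at 0.403 ± 0.107 and Ifi44 at 0.0142 ± 0.0121, the last of the 42. Neighbours in this order were mostly closer than the SD over control libraries, for instance Ifit2, Gbp3 and Ifit1.

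The pathway around these genes was read from other lists. Of 10 interferon genes, among them Ifnb1 and Ifng, none had enough reads to be tested, 8 had no read in any library, and their summed level was at most 0.125 CPM. The shares of all genes called in the same comparisons were 7.01% lower and 7.68% higher in the Vhl/Hif2a knockout, 1.42% lower and 2.22% higher in the Vhl/Hif1a knockout and 0.0388% in the triple knockout, and the counts of these lists stand beside them. Of 22 receptor and JAK-STAT genes, 6 fell and 1 rose in the Vhl/Hif2a knockout, 1 fell in the Vhl/Hif1a knockout and none was called in the triple knockout, with medians of -0.14, -0.07 and 0.00. Irf5, a transcription factor of inflammatory and interferon genes, fell by 1.06 in the Vhl/Hif2a knockout and by 0.71 in the Vhl/Hif1a knockout, and the receptor chain gene Il10rb rose by 0.30 in the Vhl/Hif2a knockout.

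Of 24 sensing and adaptor genes tested, 5 fell in the Vhl/Hif2a knockout (7.01% of all genes did), 1 in the Vhl/Hif1a knockout (1.42% of all genes) and none in the triple knockout, with medians of -0.10, -0.11 and -0.04. Nlrc5, a transactivator of MHC class I genes, had 1.79, 2.79 and 2.93 CPM in the Vhl/Hif2a knockout libraries, against 15.2, 15.0 and 10.6 CPM in controls (-2.44 ± 0.20, edgeR adjusted p = 2.6e-07). It had 5.22, 5.77 and 6.10 CPM in the Vhl/Hif1a knockout libraries, against 9.28, 11.1 and 11.8 CPM in controls (-0.91 ± 0.19, adjusted p = 0.01), and neither cross overlapped. Tlr9, the endosomal DNA receptor (-2.90), and Ddx58, which encodes the RNA sensor RIG-I (-0.40), also fell in the Vhl/Hif2a knockout. Of 80 other interferon-stimulated genes tested, 17 fell and 1 rose in the Vhl/Hif2a knockout (7.01% and 7.68% of all genes), 6 fell in the Vhl/Hif1a knockout (1.42% of all genes) and none was called in the triple knockout, with medians of -0.13, -0.12 and -0.03. Cxcl10, a chemokine for T cells, fell by 2.78 and 2.26 in the Vhl/Hif2a and Vhl/Hif1a knockouts. Mlkl, the effector of necroptosis (-1.34), and Gbp8 (-1.40) fell in the Vhl/Hif2a knockout, and Lgals9 (-0.76) and Gbp5 (-0.94) in the Vhl/Hif1a knockout.

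In each of the 3 crosses, summed levels of some lists of markers of other cells separated knockout from control libraries. Of 12 markers of conventional and migratory dendritic cells, 6 fell in the Vhl/Hif2a knockout, against 7.01% of all genes, and none rose. Those with the smallest edgeR adjusted p were Ccr7 (-2.40), Flt3 (-1.66) and Fscn1 (-2.40). None of the 12 was called in the Vhl/Hif1a or triple knockout. Their summed level was 40.6, 47.1 and 43.8 CPM in the Vhl/Hif2a knockout libraries, against 108, 95.7 and 52.3 CPM in controls, without overlap. It was 34.9 to 55.5 CPM in the Vhl/Hif1a knockout, against 50.8 to 66.7 CPM in controls, with overlap, and 48.9 to 52.7 CPM in the triple knockout, against 45.7 to 81.5 CPM in controls. Of the 12, Xcr1 and Clec9a were under 1 CPM in every library. Monocyte and interstitial macrophage markers, 12 in all, summed to 58.7 to 85.4 CPM in the Vhl/Hif2a knockout, against 15.7 to 30.8 CPM in controls, and to 35.0 to 47.9 CPM in the Vhl/Hif1a knockout, against 21.9 to 29.1 CPM in controls. They summed to 27.6 to 31.0 CPM in the triple knockout, against 20.7 to 25.1 CPM in controls. Of the 8 tested, 2 rose and 1 fell in the Vhl/Hif2a knockout, 2 rose in the Vhl/Hif1a knockout and 1 rose in the triple knockout. Of all genes, 7.68% rose and 7.01% fell in the Vhl/Hif2a knockout, 2.22% rose in the Vhl/Hif1a and 0.031% in the triple knockout. Neutrophil markers summed to 77.5 to 88.6 CPM in the Vhl/Hif1a knockout, against 156 to 166 CPM in controls, to 151 to 175 CPM in the triple knockout, against 137 to 147 CPM in controls, and overlapped in the Vhl/Hif2a cross. Single neutrophil markers went in both directions. Of the 7 tested, 1 rose and 2 fell in the Vhl/Hif2a knockout, against 7.68% and 7.01% of all genes. In the Vhl/Hif1a knockout 1 rose and 3 fell, against 2.22% and 1.42% of all genes, and none was called in the triple knockout. Csf3r (-1.07 and -1.37) and Cxcr2 (-1.79 and -1.45) fell in the Vhl/Hif2a and Vhl/Hif1a knockouts while S100a8 rose (1.63 and 1.16), and 6 of the 12 were under 1 CPM in every library. Lung epithelium markers summed to 28.1 to 48.7 CPM in the Vhl/Hif1a knockout, against 67.3 to 77.3 CPM in controls, to 168 to 190 CPM in the triple knockout, against 212 to 251 CPM in controls, and overlapped in the Vhl/Hif2a cross. Epcam was the only one of the 7 tested to be called in a knockout (-0.996 in the Vhl/Hif1a knockout, where 1.42% of all genes fell). It also differed between control groups (2.39 higher in Vhl/Hif2a than in Vhl/Hif1a controls). Of the 10 epithelium markers, 5 were under 1 CPM in every library. Summed plasmacytoid dendritic cell markers, a list that includes Bst2, overlapped in every cross, and 5 of the 9, Siglech among them, were under 1 CPM in every library. Of the 4 tested, Cox6a2 rose in the Vhl/Hif2a knockout (1.61). T and NK cell markers and B cell markers were all under 1 CPM. T and NK cell markers summed to 0.15 to 0.26 CPM in the Vhl/Hif1a knockout, against 0.40 to 0.63 CPM in controls, and overlapped in the other crosses. Of the 2 B cell markers tested, Ighm fell in the Vhl/Hif2a knockout (-1.67). The part of these cells in the changes of the interferon-stimulated genes was not tested.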

How the data were processed

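The authors deposited a gene table of estimated counts, whose unit was read from the values: 89.25% are whole numbers and the rest are fractions. Reads were handled with FastQC, cutadapt and STAR on GRCm38, per the submitters' processing notes; the counting program is not given in the sources used here, nor is its strand setting or any version. Estimated counts were rounded. Genes were filtered with filterByExpr (12900 of 32789 kept, holding 99.967% of counts), scaled by TMM and fitted over all 18 libraries with edgeR 4.0.16 (quasi-likelihood, limma 3.58.1, R 4.3.3), with Benjamini-Hochberg adjustment over all genes tested and a threshold of 0.05. CPM are TMM-scaled. The fit was tested on simulated data. Alternatives were DESeq2 1.42.0, other scaling factors and filters, other pseudocounts, a fit on the compared groups, a replicate block and leaving out each library.

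Values in every library are given for the 6 genes with the largest change among those called in each knockout and the 6 most variable within a control group, and other listed genes by smallest adjusted p, at most 3 a list. The genes and lists were chosen with earlier results of these data known. Genes of the list were annotated with GENCODE M21, and promoters come from RefSeq. Totals of 19230000 to 34020000 counts a library put 1 CPM at 19.57 to 33.45 counts, so genes near 1 CPM carry wide counting error.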

Additional observations from a re-analysis of the deposited data

Results flagged for a closer look

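The effects of the knockouts differed between crosses in 11 cases, each by an edgeR test of the difference itself, given as a difference of log2 fold changes. The Vhl/Hif2a effect minus the triple effect was -2.46 for Ifit3, -2.43 for Gbp3, -2.07 for Ifit1, -2.0 for Ifit2, -1.88 for Slfn5, -1.66 for Oasl2, -1.24 for Irf7 and -0.76 for Gbp2. The Vhl/Hif1a effect minus the triple effect was -1.72 for Ifit1 and -1.01 for Gbp3. The Vhl/Hif2a effect minus the Vhl/Hif1a effect was -1.42 for Gbp3.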

How the results depend on the processing

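Of the 41 genes, DESeq2 called 14 in the difference between the Vhl/Hif2a and triple effects (11.7% of all genes, against 7.99% by edgeR), 2 in that between the Vhl/Hif2a and Vhl/Hif1a effects (3.81% against 2.44%), and 13 between triple and Vhl/Hif1a controls (10% against 5.4%). A fit on only the groups compared called 4 in the Vhl/Hif1a knockout, 1 and 2 in the differences of the Vhl/Hif1a effect to the triple effect and of the Vhl/Hif2a effect to the Vhl/Hif1a effect, and 0 between triple controls and either other control group. With no filter, 8 were called between triple and Vhl/Hif1a controls. Leaving out single libraries gave 2 to 7 calls in the Vhl/Hif1a knockout, 16 to 19 in the Vhl/Hif2a knockout and 0 in the triple knockout. It gave 0 to 3 for the Vhl/Hif1a minus triple effect, 4 to 15 for Vhl/Hif2a minus triple, 1 to 2 for Vhl/Hif2a minus Vhl/Hif1a, 0 to 9 between triple and Vhl/Hif1a controls, and 0 to 3 between triple and Vhl/Hif2a controls. Without triple control 2 in the shared spread, an alternative added after seeing the data, 13 were called in the Vhl/Hif1a knockout (6.55% of all genes, against 3.64% with 18 libraries) and 26 in the Vhl/Hif2a knockout (22.1% against 14.7%).

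Deviations of same-numbered libraries from their group means had correlations of -0.218 to 0.2 over 12900 genes. With 3 libraries a group, this check showed no pairing by number and cannot exclude it. With the replicate block 5 genes were called in the Vhl/Hif1a knockout, 18 in the Vhl/Hif2a knockout, 1 in the Vhl/Hif1a minus triple effect and 0 between triple and Vhl/Hif2a controls. Counts of alternative fits can move with the number of all genes called. The share of all genes is not given here for the replicate block, the fit on the compared groups, no filter and the left-out libraries. Among the genes given by library, signs turned in the triple knockout only, where none was called. Leaving out single libraries gave Ifit1 -0.15 to 0.24 (positive without control 1 or knockout 2), Ifit3 -0.36 to 0.13 and Ifit1bl1 -0.31 to 0.12 (positive without control 1). It gave Ifit3b -0.64 to 0.41 (positive without control 1, knockout 2 or knockout 3) and Samd9l -0.059 to 0.53 (negative without control 2). The cause was not tested.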
